A study of Mus musculus with 10 samples.

Results

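The genes that drive the cell cycle and copy the genome were followed through the accessible chromatin of mouse embryo fibroblasts. They were chosen by symbol as the protein-coding genes of the lettered and numbered cyclins (Ccna to Ccnl with a digit), the cyclin-dependent kinases (Cdk), the cell division cycle genes (Cdc), the minichromosome maintenance genes (Mcm), the E2f transcription factors and the origin recognition complex (Orc). This gave 69 of 21938 protein-coding genes, with 14 cyclins, 18 Cdk, 14 Cdc, 9 Mcm, 8 E2f and 6 Orc genes. Their neighbourhoods held 979 of the 153682 accessible sites located on chromosomes. Of these, 94 lay within 1 kb of an annotated start site of the gene (promoter sites), 205 in the rest of the gene (body sites) and 680 beside the gene within 50 kb of either end (flank sites). Not every gene chosen by name acts in the cell cycle. Cdc42 is a small GTPase of the cytoskeleton, Cdc73 a subunit of a transcription elongation complex, Cdc40 a splicing factor, Cdc123 an assembly factor of translation initiation and Cdk5 a kinase best known from neurons.

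Accessibility was measured by ATAC-seq, in which the transposase Tn5 cuts open chromatin. The cells were immortalized mouse embryo fibroblasts (iMEF) from Ash2l fl/fl animals carrying the inducible recombinase Cre-ER. All groups had lost exon 4 of the endogenous Ash2l and depended on FKBP-HA2-ASH2L, a lentiviral fusion of human ASH2L with a variant of FKBP12 that the PROTAC dTAG-13 targets for degradation. The 10 libraries comprised 2 replicates each of 5 groups, which were cells without dTAG-13 (with ethanol as the solvent control, per the methods) and cells that had received dTAG-13 30 min, 4 h, 8 h or 24 h earlier. According to the methods the cells were NG3, a single clone. The values analysed are the positions of all sites called over these libraries. The list holds no signal per library, so no site was compared between treated and untreated cells, no replicate error or p-value belongs to any value, and the depth is unknown. The marker genes set for fibroblasts had a promoter site in 10 of 10 cases, those for immune cells in 1 of 4 and for epithelium in 3 of 4, while 3 of 3 endothelial, 3 of 3 neural and 2 of 3 pluripotency markers also had one. A promoter site is therefore a position of open chromatin and no measure of expression.

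As background, cyclins activate Cdk kinases in turn. D-type cyclins with Cdk4 and Cdk6 inactivate the retinoblastoma family in G1, which frees E2F factors to activate genes of S phase, among them E-type cyclins and replication genes. Origins are marked by the origin recognition complex, Cdc6 then helps to load the ring of Mcm2 to Mcm7, and the kinase Cdc7 together with Cdc45 and Mcm10 turns the loaded ring into the moving helicase. Promoters of many genes of G1 and S phase carry E2F elements, and those of genes of G2 and mitosis often carry CCAAT boxes bound by NF-Y and a cell cycle homology region (CHR).

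The E2F consensus was searched as TTTCGCGC or TTTGGCGC on either strand, from 250 bases before to 50 after the start of the principal transcript. It occurred in 8 of the 69 genes. These stretches are shown because this motif had the largest ratio to other genes among the motifs searched, as described further on. All stretches are from GRCm38 (mm10), read 5′ to 3′ on the strand of the gene, with capitals marking the consensus or its reverse complement.
Cdk1, chr10:69353025-69353054, minus strand: tttccgctcccTTTCGCGCtctgcgctccc
Orc1, chr4:108579416-108579445, plus strand: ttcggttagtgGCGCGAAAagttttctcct
Mcm3, chr1:20820263-20820285, minus strand: acttgggaagtTTTGGCGCcaag
Mcm5, chr8:75109345-75109378, plus strand: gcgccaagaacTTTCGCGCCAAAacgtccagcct
Mcm6, chr1:128359734-128359826, minus strand: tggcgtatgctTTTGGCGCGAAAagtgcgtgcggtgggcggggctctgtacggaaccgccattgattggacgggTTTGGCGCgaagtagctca
Mcm8, chr2:132816169-132816190, plus strand: gcgtcatagacGCGCCAAAaaa
E2f1, chr2:154569857-154569886, minus strand: ggcaaaaaggaTTTGGCGCgtaaaagtggc
E2f2, chr4:136172302-136172331, plus strand: gcggcatatagTTTGGCGCtaaaaaaaaaa

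The matches differed in form. Mcm5, a helicase subunit, carried 2 overlapping matches on opposite strands from position -213, counted from the start base as 0 with negative values upstream. Mcm6, its partner in the ring, had such an overlapping pair from -151 and another match at -88, and was the gene with the most matches. In Cdk1, the kinase of mitosis, the match began at -105, in E2f2 at -81 and in Orc1, the largest origin recognition subunit, at -27. The matches of E2f1 at 17, Mcm3 at 38 and Mcm8, a helicase of recombination repair, at 39 lay just downstream of the start. All 11 matches lay inside a promoter site of their gene.

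Longer stretches of 280 bases, from 250 before the start to 30 from it onwards, are shown for 3 genes that differ in their sites and letters. Ccnb3 (cyclin B3, best known from meiosis) had no promoter site, and Ccnb2 (cyclin B2) and Cdk1 carried the largest collections of CHR and CCAAT letters. Capitals mark matches to the E2F consensus, the CHR (TTTGAA) and the NF-Y box (CCAAT) or their reverse complements.
Ccnb2, chr9:70421518-70421797, minus strand: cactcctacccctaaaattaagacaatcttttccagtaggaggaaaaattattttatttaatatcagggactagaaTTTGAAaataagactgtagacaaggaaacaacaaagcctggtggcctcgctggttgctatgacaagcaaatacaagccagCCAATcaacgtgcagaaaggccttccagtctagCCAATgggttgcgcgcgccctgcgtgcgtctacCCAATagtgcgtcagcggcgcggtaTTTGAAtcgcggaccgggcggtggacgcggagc
Ccnb3, chrX:7041590-7041869, minus strand: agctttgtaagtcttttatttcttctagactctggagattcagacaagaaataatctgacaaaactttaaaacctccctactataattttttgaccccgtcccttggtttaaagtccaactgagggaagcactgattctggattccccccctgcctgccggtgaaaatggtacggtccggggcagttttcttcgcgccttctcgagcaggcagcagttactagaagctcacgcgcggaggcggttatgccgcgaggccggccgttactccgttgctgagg
Cdk1, chr10:69352909-69353188, minus strand: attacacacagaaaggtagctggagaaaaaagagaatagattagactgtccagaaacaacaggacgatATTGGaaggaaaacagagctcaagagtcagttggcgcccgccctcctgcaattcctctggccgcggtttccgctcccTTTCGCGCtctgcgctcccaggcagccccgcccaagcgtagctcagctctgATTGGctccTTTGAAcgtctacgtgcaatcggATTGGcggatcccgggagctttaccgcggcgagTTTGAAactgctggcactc

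The promoter of Cdk1 held 1 E2F match, 2 CHR matches and 3 CCAAT boxes, and that of Ccnb2 2 CHR matches and 3 CCAAT boxes without the E2F consensus. In Ccnb3 none of these 3 motifs was found, which says only that these letters are not in this window.

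Open chromatin was found at the start of nearly all of these genes. A promoter site was listed for 68 of 69 genes (98.6%), compared to 70.8% of all protein-coding genes. CpG-rich promoters are open more often, and of the 15278 protein-coding genes with a CpG-rich start 91.0% had a promoter site. A CpG-rich start itself, meaning a window of 200 bp within 1 kb in which GC exceeds 0.5 and CpG pairs exceed 0.6 of the number expected from base composition, was present in 68 of the 69 genes (98.6%) but in 69.6% of all protein-coding genes. The start of the principal transcript lay inside a site in 68 of 69 genes, in 59.9% of all and in 80.9% of genes with a CpG-rich start. These shares describe 1 list, and genes are not replicates.

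The exception was Ccnb3 (ENSMUSG00000051592.14) on chromosome X. This gene of 62.0 kb had no site at its 2 annotated starts or in its body, and the nearest site lay 29327 bp from its start (chromosome X, 7070946 to 7071518, 573 bp). Chromosome X carried 2.19 sites per 100 kb and the autosomes 4.92 to 9.97. Cdk16, the other of these genes on X and a kinase of the PCTAIRE group, had a promoter site of 1846 bp. Cdk15, a little studied kinase, was the only gene without a CpG-rich start and nevertheless had a site of 1225 bp over its principal start.

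The remaining genes of the pathway, a list of 81 partners, regulators and polymerase subunits, were similar, with a promoter site in 80 (98.8%). Only Pold4, the small subunit of DNA polymerase delta, lacked one, with the nearest site 29220 bp from its start. All 10 cyclins and kinase partners, 11 E2F partners and pocket proteins, 6 kinase regulators, 14 licensing and firing genes, 8 mitotic kinases and checkpoint genes and 9 genes of the anaphase promoting complex had a site, as did 22 of 23 polymerase and clamp genes.

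The sites at these promoters were wider at the median than those of other genes. Their median width was 1458 bp (quartiles 1049 and 1848 bp, range 213 to 3591 bp), compared to 1180 bp (688.2 and 1571 bp) for the 20938 promoter sites of all protein-coding genes. It was 1229 bp for genes with a CpG-rich start and 1320 bp for the pathway list. For sites that cover the principal start the medians of the 68 genes and of all lay closer, with 1564 and 1438 bp, and the quartiles of 1320 to 1900 and 1166 to 1774 bp overlapped. Over the principal start the median was 1459 bp for genes with a CpG-rich start and 1388 bp for the pathway list. The sites over the start of the 68 genes reached a median of 658 bp upstream and 917 bp downstream of it, compared to 567 and 799 bp in all protein-coding genes. They extended farther into the gene than upstream in 49 of 68 genes (72.1%, compared to 68.0% of all), including 13 of 13 cyclins. In the pathway list the share was 62.8%, and among its cyclins and kinase partners it was 4 of 9 genes.

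**Figure D1:**
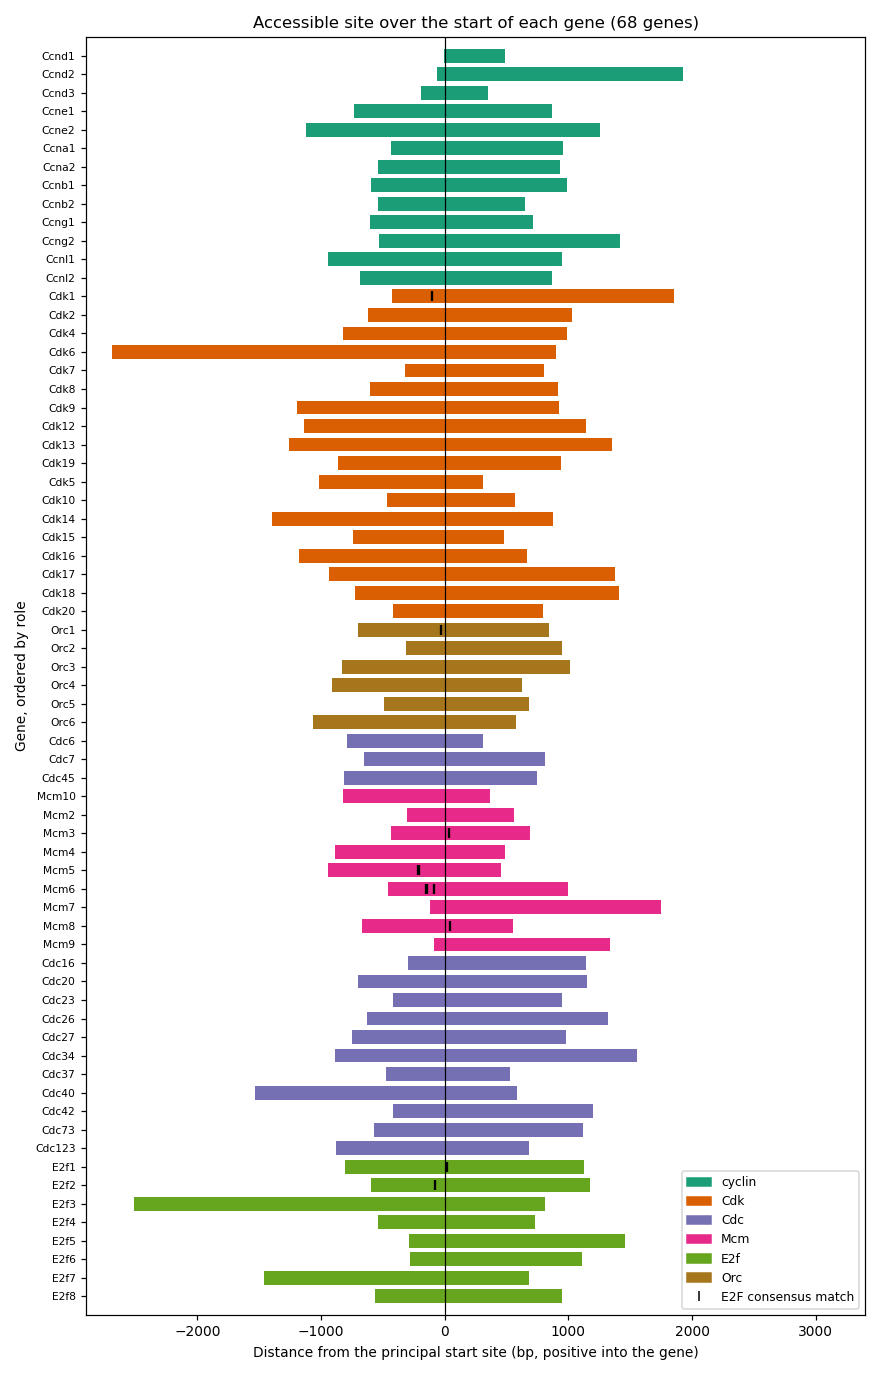
The site over the principal start of 68 genes, drawn as a bar from its upstream to its downstream end in bp from the start, with genes ordered by role and colored by family. Black ticks are the first bases of the 11 E2F consensus matches, all inside the bars. Cdk6 and E2f3 reach farthest upstream, and Ccnd1 begins almost at the start.

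By family, the median width of all promoter sites was 1758 bp for E2f, 1701 bp for Cdk, 1512 bp for Cdc, 1413 bp for cyclin, 1404 bp for Orc and 1296 bp for Mcm genes. The ranges overlapped widely, so this order does not separate the families. Annotated starts number a median of 5 for these genes and 3 for all protein-coding genes, which gives them more windows in which a site can count. With the outermost start alone, 68 of 69 genes still had a site, compared to 66.2% of all.

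**Figure D2:**
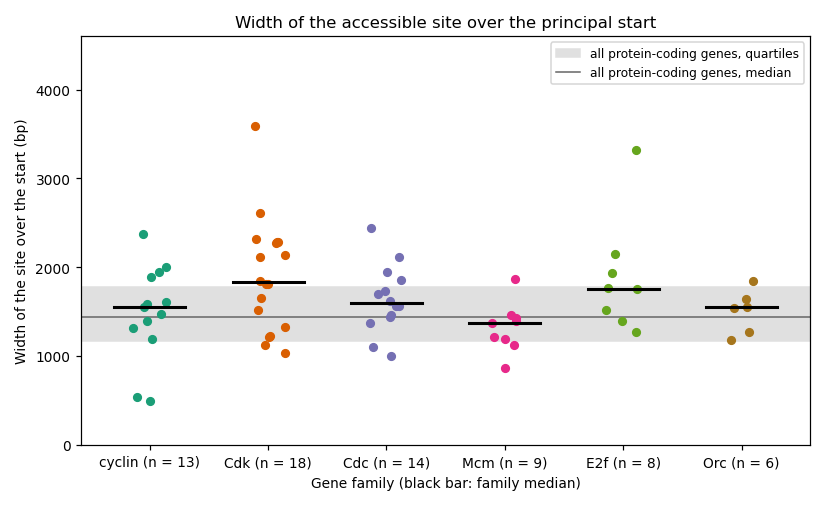
Width in bp of the site over the principal start, 1 point per gene (68 genes), by family. Black bars are family medians, and the gray line and band give the median (1438 bp) and quartiles (1166 and 1774 bp) of all protein-coding genes. Many points lie inside or just above the band, with Cdk6 and E2f3 far above and Ccnd1 and Ccnd3 far below it.

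Of the 69 genes, 21 (30.4%) had 2 or more promoter sites. The share was 30.6% of protein-coding genes with a promoter site and 29.0% of those with a CpG-rich start. Among the G1 cyclins, these were the D-type genes, in part through alternative starts. Ccnd1, which encodes cyclin D1 (ENSMUSG00000070348.5, chromosome 7, minus strand) had a site of 497 bp (144939380 to 144939876) that covered the principal start but ended 7 bp upstream of it. A further site of 600 bp (144937533 to 144938132) was assigned by the start of a shorter transcript less than 1 kb away. Upstream, the next sites spanned 1118 bp (144941163 to 144942280) and 982 bp (144942758 to 144943739). In Ccnd2 (chromosome 6) a site of 1998 bp (127149129 to 127151126) extended 66 bp upstream and 1931 bp into the gene, followed upstream by a site of 1461 bp (127151404 to 127152864). Ccnd3 (chromosome 17) had 4 promoter sites, a narrow one of 539 bp at the principal start (47504861 to 47505399) and 3 of 1435, 1040 and 318 bp at or within 1 kb of alternative starts near the other end of the gene, between 47593124 and 47598424. Of its 19 annotated starts, 17 lay inside a site.

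The E-type cyclins, which act with Cdk2 at entry into S phase, had 1 promoter site each. Ccne2 (chromosome 4, 11190235 to 11192608) had the widest site of the cyclins with 2374 bp over all 7 annotated starts, and Ccne1 (chromosome 7, 38106665 to 38108270) had 1606 bp. Sites of the S phase and mitotic cyclins were alike in width, with 1391 bp at Ccna1, 1474 bp at Ccna2 (chromosome 3, 36571214 to 36572687), 1586 bp at Ccnb1 (chromosome 13, 100785582 to 100787167) and 1187 bp at Ccnb2 (chromosome 9, 70420900 to 70422086). Ccnl1, a cyclin of RNA processing, had 3 promoter sites of 830, 213 and 1888 bp, and its paralog Ccnl2 had a site of 1556 bp. Of the G-type cyclins, Ccng1, a target of p53, had 1314 bp and Ccng2 1946 bp.

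Over the principal start, the median width was 2050 bp for the 4 kinases of the cell cycle, compared to 1438 bp for all protein-coding genes. It was 1959 bp for the 6 kinases that act on RNA polymerase II and Mediator. Among all the genes chosen, Cdk6 (ENSMUSG00000040274.11, chromosome 5, plus strand, 3341204 to 3344794) had the widest site with 3591 bp, of which 2689 bp lay upstream of the start. Its relative Cdk4 (chromosome 10, 127062708 to 127064522) had 1815 bp and Cdk2 (chromosome 10, 128703975 to 128705624) 1650 bp. At Cdk1 (chromosome 10, 69351082 to 69353367) the site of 2286 bp extended 1856 bp into the gene, and a site of 240 bp lay within 1 kb of a start farther in without covering it. Of the kinases that act on RNA polymerase II and Mediator, Cdk13 (chromosome 13, 17803300 to 17805914) had 2615 bp, the third widest, Cdk12 had 2282 bp, Cdk9 2113 bp, Cdk8 1515 bp and Cdk7 1125 bp. Cdk19 had 1805 bp over the principal start and 1920 bp at an alternative start. Cdk14, a kinase that pairs with cyclin Y, had 3 promoter sites of 1752, 2274 and 1077 bp in the part of the gene nearest its 5′ end, of which the last covered no annotated start. The PCTAIRE kinase genes were similar to each other, with 2315 bp at Cdk17, 2138 bp at Cdk18 and 1846 bp at Cdk16 over the principal start. The sites of Cdk5 (1322 bp), Cdk20 (1216 bp), a kinase of the cilium, and Cdk10 (1037 bp) were narrower, and Cdk5 shares its start region with Slc4a2, an anion exchanger.

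The genes that mark and license origins had sites of similar widths. The widest promoter site was 1549 bp at Orc1, 1266 bp at Orc2, 1849 bp at Orc3, 1543 bp at Orc4, 1175 bp at Orc5 and 1643 bp at Orc6. In 4 of these 6 genes another protein-coding gene starts within 1 kb on the opposite strand, Prpf38a at Orc1, Rars2 at Orc3, Mbd5 at Orc4 and Vps35 at Orc6, so that the site may belong to either gene. Such partners were found for 14 of the 69 genes (20.3%), and for none of the 14 cyclins and 8 E2f genes. The share was 10.9% of all protein-coding genes, 14.7% of those with a promoter site and 15.2% of those with a CpG-rich start. The sites over the starts of Cdk2, Mcm8, Cdc26 and Cdc27 also held the start of such a partner, namely Pmel, Trmt6, Prpf4 and Myl4. Cdc6, which loads the helicase, had a site of 1100 bp (chromosome 11, 98907364 to 98908463), Cdc7, the kinase that fires origins, 1462 bp, Cdc45 1561 bp in common with Ufd1, and Mcm10 1195 bp.

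The helicase genes had the lowest median width of the 6 families. Mcm2 (chromosome 6, 88898218 to 88899085) had 868 bp, with a further site of 644 bp at a start inside the gene, Mcm3 (chromosome 1, 20819623 to 20820743) 1121 bp, Mcm4 (chromosome 16, 15636915 to 15638288) 1374 bp and Mcm5 (chromosome 8, 75108628 to 75110024) 1397 bp. Mcm6 (chromosome 1, 128358670 to 128360125) had 1456 bp and Mcm7 (chromosome 5, 138170675 to 138172537) 1863 bp, nearly all of it downstream of the start. Mcm4 shares its site with Prkdc, which encodes a DNA repair kinase, and Mcm7 with Ap4m1. The repair helicase genes had 1217 bp (Mcm8) and 1424 bp (Mcm9) over the principal start, and a further, wider site of 2100 bp at starts inside Mcm9 also held the start of Asf1a.

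Among the Cdc genes, the narrowest site over a principal start was found at Cdc37, a chaperone partner of kinases, with 1004 bp. Cdc20, the activator of the anaphase promoting complex, had 1854 bp (chromosome 4, 118436203 to 118438056) and the small GTPase gene Cdc42 1615 bp (chromosome 4, 137356523 to 137358137). Over the principal start, the subunits of the anaphase promoting complex ranged from 1371 bp at Cdc23 and 1436 bp at Cdc16 to 1731 bp at Cdc27 and 1948 bp at Cdc26. The widest site of the Cdc genes was that of Cdc34, a ubiquitin-conjugating enzyme, with 2439 bp, followed by Cdc40 with 2116 bp, of which 1533 bp lay upstream towards Wasf1, and Cdc123 had 1567 bp in common with Nudt5. Cdc73 had 3 promoter sites, of which that at the principal start spanned 1693 bp and the others only 257 and 377 bp.

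Of the activating E2f genes, E2f3 (ENSMUSG00000016477.18, chromosome 13, minus strand, 29983582 to 29986902) had a site of 3321 bp that extended 2511 bp upstream of the start, next in width after Cdk6. E2f1 (chromosome 2, 154568763 to 154570699) had 1937 bp and E2f2 (chromosome 4, 136171801 to 136173566) 1766 bp, with a site of 452 bp that lay within 1 kb of another of its starts but covered none. The repressing members had 1269 bp over the principal start at E2f4, 1749 bp at E2f5, 1390 bp at E2f6, 2148 bp at E2f7 and 1516 bp at E2f8. Within 1 kb of another start of E2f4 lay a wider site of 2100 bp (chromosome 8, 105303950 to 105306049), which covered no start of E2f4 but that of Elmo3.

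The E2F consensus shown above had the largest ratio to other genes among the 10 motifs searched. It was found in 8 of 69 genes (11.6%), in 1.03% of all protein-coding genes and in 1.36% of those with a promoter site. The GC content of the windows had a median of 62.0% for the 69 genes, 56.0% for all and 60.0% for those with a promoter site, and among genes with a CpG-rich start the share with the consensus was 1.41%. In the pathway list the share was 13.6%, with matches in Tfdp1, Rbl1, Cdc25a, Cdt1, Gins1, Topbp1, Tipin, Pola1, Pole, Pole2 and Rfc3. The 8 genes comprised 4 of 9 Mcm genes, 2 of 8 E2f genes, 1 of 6 Orc genes and 1 of 18 Cdk genes, and none of the 14 cyclins or 14 Cdc genes. These counts concern exact matches to TTTCGCGC or TTTGGCGC in this window. Other forms of E2F element were not sought, so a gene without a match may still carry one.

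The number depended on where the letters were sought. From 500 bases before to 100 after the start, Cdc6 and Mcm2 joined, giving 10 genes (14.5%, compared to 1.60% of all). At any annotated start there were 13 genes (18.8%, compared to 1.79%), and over whole promoter sites 18 genes (26.1%, compared to 3.49% of all and 4.93% of those with a promoter site). Among the 18 were Ccnd3, Cdk9, Cdk14, Mcm7, Mcm9, E2f3, E2f7 and E2f8, besides Cdc6, Mcm2 and the 8 genes above. Thus 7 of 9 Mcm genes and 5 of 8 E2f genes carried the consensus somewhere in a promoter site, with sites at alternative starts included. The promoter sites of the 69 genes had a median width of 1458 bp and those of all protein-coding genes 1180 bp, so the lengths searched were unequal.

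The other motifs differed less from the background. CCAAT was found at 32 of 69 starts (46.4%), compared to 38.6% of all protein-coding genes and 37.3% of those with a promoter site. It occurred in 8 of 9 Mcm genes, Mcm7 being without it. The CHR was found at 10 starts (14.5%), below the 15.6% of all and above the 12.0% of those with a promoter site, with 2 matches each in Ccnb2, Cdk1 and Cdc45 and 1 each in Ccnd2, Ccng2, Cdc7, Cdc20, Cdc40, Mcm2 and E2f8. The SP box GGGCGG was found in 71.0%, compared to 45.4% of all and 59.3% of those with a promoter site, with 6 matches in Cdk2 and in E2f1. CACGTG, the E-box bound by Myc, occurred in 8 genes (11.6%, compared to 7.78% of all and 9.32% of those with a promoter site). Of the 11 matches, 4 were in Cdk4. AP-1, searched as TGAGTCA or TGACTCA, was found at 1 start, that of Cdk15 (1.45%, compared to 4.45% of all and 3.75% of those with a promoter site). CCGGAAGT for ETS was found in 8.70%, compared to 5.01% of all and 6.66% of those with a promoter site. TGACGTCA for CRE was found in 5.80%, compared to 2.49 and 3.08%, and the NRF1 consensus in 4.35%, compared to 1.75 and 2.39%. GCGGGGGCG or GCGTGGGCG for EGR was found in 5.80%, above the 4.71% of all but below the 6.32% of those with a promoter site. In the pathway list the shares were 14.8% for ETS, 1.23% for CRE, 4.94% for NRF1 and 3.70% for EGR. Each motif was sought on both strands, a match is a description of letters, and shares that rest on 3 to 6 genes move by over 1 percentage point with each gene.

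**Figure D3:**
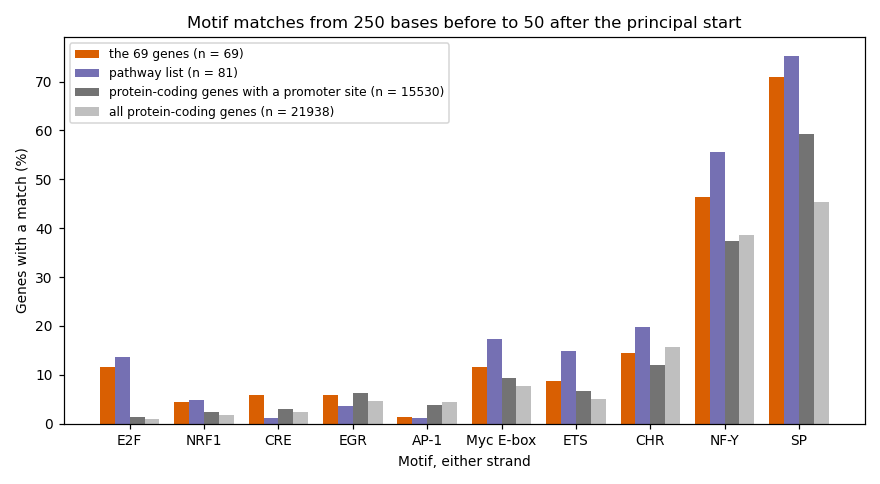
Share of genes (%) with at least 1 match to each motif on either strand, from 250 bases before to 50 after the principal start. Bars stand for the 69 genes, the pathway list, protein-coding genes with a promoter site and all protein-coding genes. The E2F bars of the 69 genes (11.6%) and the pathway list (13.6%) stand well above those of other genes (1.36 and 1.03%), while the CHR bar of the 69 genes (14.5%) lies between those of genes with a promoter site (12.0%) and all genes (15.6%).

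Within the genes, accessible sites followed gene length. The median was 1 body site for the 69 genes and for all protein-coding genes, and 28 of 69 genes (40.6%) had none, compared to 48.7% of all, 37.4% of those with a promoter site and 39.2% of those with a CpG-rich start. Over all their bodies the 69 genes held 6.84 sites per 100 kb and all protein-coding genes 6.0. The density was 6.49 for genes with a promoter site, 6.23 for those with a CpG-rich start and 4.52 for the pathway list. The Cdk genes held 131 of the 205 sites, at 8.61 per 100 kb. The 5 genes over 100 kb had 8.27 sites per 100 kb, compared to 6.16 in all genes of that length, whereas the 11 genes of 50 to 100 kb had 6.23, compared to 6.68. Only 15 of the 205 body sites had their middle in an exon, and the others were intronic. Genes under 10 kb had sites in 4 of 17 cases, whereas all 5 genes over 100 kb had some.

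Cdk14 (ENSMUSG00000028926.15) had 48 body sites in 617 kb, or 7.78 per 100 kb. Cdk6 had 19 in 190 kb (10.0 per 100 kb), all intronic, of which the widest spanned 1997 bp in intron 5 (chromosome 5, 3501260 to 3503256). Cdk17, a PCTAIRE kinase on chromosome 10, had 16 in 106 kb (15.1 per 100 kb), including 3 neighbouring sites in intron 3 of 670, 630 and 753 bp. Cdk19 had 10, and Cdk8, Cdk13 and Cdk15 had 8 each. Chromosome 10, on which 9 of the 69 genes lie, carried 8.43 sites per 100 kb, and apart from chromosome 15 the other autosomes carried 4.92 to 7.61.

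Density was highest in Cdc6, with 4 sites in 16.1 kb (24.8 per 100 kb), 3 of them intronic and 1 of 1434 bp in an exon (chromosome 11, 98921897 to 98923330). Ccnd1 followed with 2 sites in 9.99 kb. All 7 body sites of Ccnd3 were located in intron 1, between the principal start and the alternative starts. The Mcm genes were at the other end, with 5 sites in 246 kb (2.03 per 100 kb). None was found in Mcm2, Mcm3, Mcm4, Mcm5, Mcm7 and Mcm8, while Mcm6 and Mcm9 had 2 and Mcm10 had 1. Apart from Mcm8, the Mcm genes without a body site were shorter than 20 kb. Of all protein-coding genes, 1047 of 7774 under 10 kb and 1838 of 4005 of 10 to 20 kb had a body site. Sites at starts inside Mcm2, Mcm7 and Mcm9 were counted as promoter sites and not as body sites. The largest gene without a body site was Ccnb3, followed by Orc4 with 47.5 kb.

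**Figure D4:**
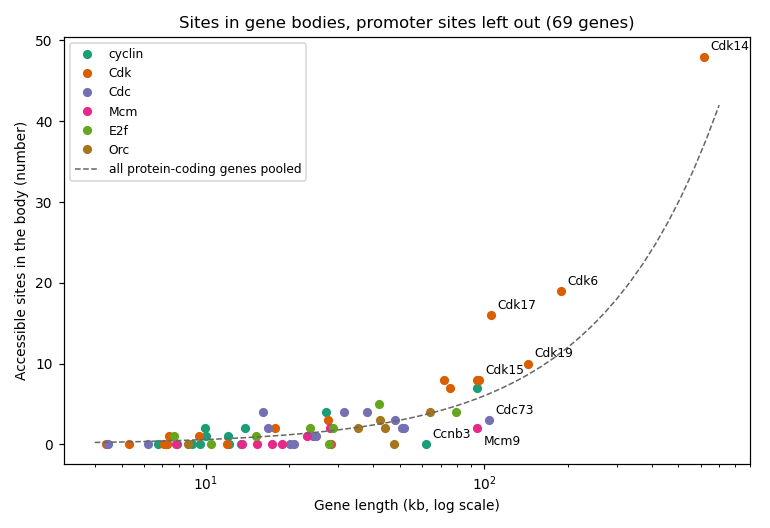
Number of accessible sites in the body against gene length (kb, log scale) for the 69 genes, colored by family. The dashed line is the pooled density of all protein-coding genes, 6.0 sites per 100 kb. Cdk17, Cdk6 and Cdk14 lie above the line, and Mcm9, Cdc73 and Ccnb3 below it.

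Beside the genes, within 50 kb, the number of sites ranged from 1 at Ccnb3 to 21 at Cdc34, Cdc42 and E2f6, with a median of 9 compared to 8 for all protein-coding genes. When sites at starts of other genes were left out, the median was 6 in both. By this count the genes with the most open surroundings were Cdc42 (19 sites), E2f6 (18), Ccnd1, Cdc6 and Cdk18 (16 each) and E2f2 (15). At Ccnd1, 9 of these 16 sites lay upstream, at distances from -1853 to -49118 bp of the start, among them one of 1334 bp (chromosome 7, 144980677 to 144982010). Of the 16 flank sites at Cdk5 and at Ccnl2, by contrast, 12 lay at the starts of other genes. The 6 sites counted for more than 1 gene all belonged to Ccnb1 and Cdk7, which are neighbours on chromosome 13.

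**Figure D5:**
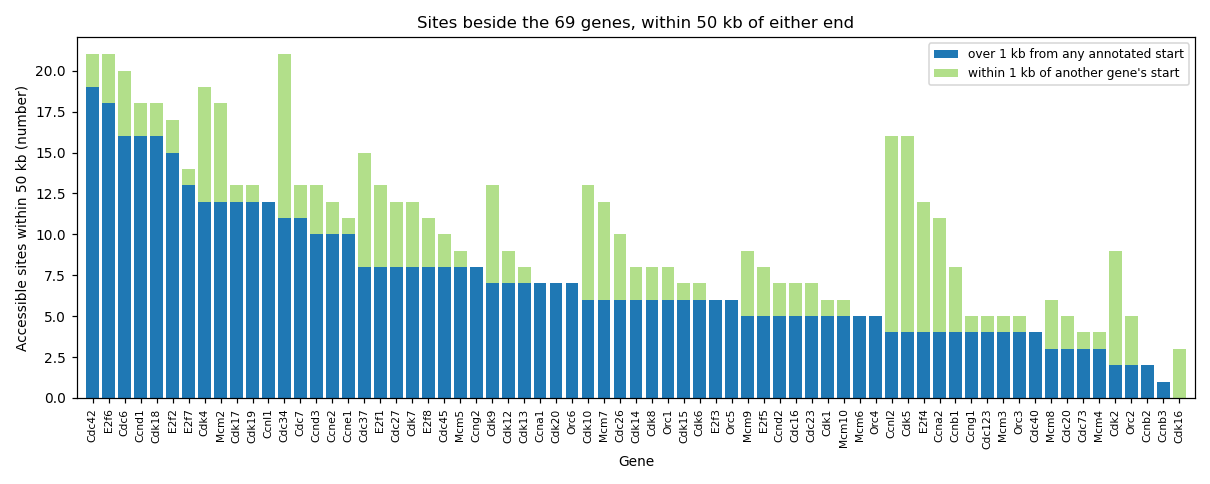
Number of accessible sites within 50 kb of either end of each of the 69 genes, split into those over 1 kb from any annotated start and those near another gene's start. Genes are ordered by the former. Cdc42 and E2f6 lead with 19 and 18 such sites, while Ccnb3 has 1 and Cdk16 has 0.

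The distal sites of these genes, 692 sites in bodies and flanks that lay over 1 kb from any start, resembled distal sites elsewhere. Their median width was 581.5 bp, compared to 565 bp for all 127255 distal sites. In the middle 200 bp, AP-1 was found in 15.9% and in 16.3% of all, and CCAAT in 22.5 and 24.5%. The E2F consensus was found in 0 of the 692 sites and in 0.112% of all distal sites. In the middles of the 94 promoter sites of the 69 genes the E2F consensus was found in 5 (5.32%), compared to 0.530% of all promoter sites of protein-coding genes, AP-1 in 2 (2.13%), compared to 5.49%, and CCAAT in 22.3%, compared to 18.8%. The widest distal sites spanned 2060 bp at E2f2 (chromosome 4, 136146103 to 136148162, middle at -25261 bp from the start) and 2035 bp at Mcm2 (chromosome 6, 88934424 to 88936458, at -36661 bp), besides that in intron 5 of Cdk6.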

How the data were processed

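ATAC-seq libraries were sequenced by the authors, trimmed with Trim Galore, aligned to mm10 with BWA and filtered with SAMtools. Replicates were merged with Picard and narrow peaks called with MACS2. Versions, the MACS2 threshold and the way sites of different libraries were joined are not given in the sources used here. Peaks from merged or deeper libraries reach weaker sites and may be wider. The deposited table, the only file used, gives the chromosome, start and end of 153924 sites over all libraries, and no counts, scores or other values per library. The columns were read by the BED convention, and 1 was added to each start for printing. If this reading were wrong, starts would shift by 1 bp.

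The protocol in the labels describes cross-linking for ChIP, while the methods describe ATAC-seq of dTAG-13 or ethanol treated cells. The members and lists were chosen with earlier results of these data known. Genes, transcripts and starts were taken from GENCODE M21. Sites with at least 1 bp inside 1 kb of a start, upstream or downstream, were promoter sites, and body and flank sites (within 50 kb) were assigned by their middle, promoter sites left out. The principal start was that of the APPRIS principal transcript, otherwise of the longest. CpG-rich windows held no soft-masked base. Sequence was read from GRCm38. Genes described singly are those without a promoter site, the 3 with the widest and the narrowest sites, the 5 with the most body sites (with ties), those with 3 or more promoter sites, those with the E2F consensus and a core set of cyclins, kinases and replication genes. Other genes named with values, such as Ccna1, Ccnl2, Cdk5, Cdk7, Cdk9, Cdk12, Cdk16, Cdk18, Cdc34 and Mcm9, were chosen after their values were seen. No test was made, because the list has no replicates. Alternatives were other windows, starts, overlaps, wider sites, CpG criteria and motif windows. RefSeq transcripts and promoter windows were added after the data were seen. The computations were tested on simulated data and used Python 3.11.15, NumPy 2.4.6, pandas 2.3.3 and Matplotlib 3.10.9.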

Additional observations from a re-analysis of the deposited data

How the results depend on the processing

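No paired analysis was possible because pooled positions alone were used here, without a value for any library. Leaving out a replicate, a replicate block and count models were therefore not run. The number of the 69 genes with a promoter site was 68 with each other window, start and overlap and with RefSeq starts, and 67 when sites narrower than the median site were dropped, where Ccnd1 joined Ccnb3. The median width of promoter sites was 1596 bp for the widest site per gene instead of 1458 bp. The median number of body sites was 4.33 per 100 kb, 10.6 with promoter sites kept and 0 with wide sites only, since most genes have few sites. The median of 9 flank sites became 5 within 25 kb, 17 within 100 kb, 6 without sites at other starts and 5 with wide sites only. The count of 8 genes with the E2F consensus became 18 over whole promoter sites and 13 at any start, which search more sequence. In RefSeq promoter windows, where 58 of the 69 genes were matched, 8 genes carried it, compared to 251 of 27025 gene symbols (0.929%). Mcm7 was among the 8 and E2f1 was not, and these counts do not show whether E2f1 was matched. By the stricter CpG criterion 55 genes had a CpG-rich start (79.7%, compared to 46.7% of all protein-coding genes).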
